A study of Homo sapiens with 18 samples.

Results

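The genes described here are 7 factors that act at the entry into DNA replication: the E2F transcription factors E2F1, E2F2, E2F7 and E2F8, the E2F partner TFDP1, and the E-type cyclins CCNE1 and CCNE2. They were chosen by name, with earlier results of these data known, from the 3647 genes listed in any of 3 deposited tables of differential expression. All 7 had values in 1 of the tables, which sets fenofibrate plus ezetimibe against DMSO and lists 3508 genes, and none was in the other tables. The choice therefore rests on that contrast, so the differences of these genes in it are given as a description, without p-values. RNA was sequenced from Cal51, an established human breast cancer cell line, after 8 h in 1 of 4 conditions. They were DMSO as the control, fenofibrate (a PPARα agonist used against high triglycerides), ezetimibe (a drug that blocks cholesterol uptake in the gut through NPC1L1), and both drugs, here called the combination. Each of these 4 groups had 3 libraries, 12 in all. The labels give neither doses nor any genetic change in these groups, and they do not say whether the replicates were separate cultures, so the spread between libraries may be technical. The other 6 libraries of the series, from PKM2 knockout cells and their control, are not analysed here.

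E2F proteins bind DNA at the promoters of genes needed for replication. E2F1 and E2F2 are activators that bind as dimers with a DP protein such as TFDP1 and are held inactive by the retinoblastoma protein until cyclin-dependent kinases phosphorylate it. E2F7 and E2F8 are atypical members that bind DNA without a DP partner and repress E2F target genes later in S phase, so they act as a negative feedback. Cyclin E1 and cyclin E2 activate the kinase CDK2, which phosphorylates the retinoblastoma protein further, and the cyclin E genes are themselves E2F targets. Several E2F genes are also E2F targets, which makes their own promoters part of the circuit.

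The promoters are shown for this reason. Of the 7 genes, 5 were matched by symbol to a RefSeq promoter of 300 bases on GRCh38.p14 (250 before and 50 after the gene start). E2F8 and CCNE2 were not matched. The E2F motif was searched on both strands as TTTCCCGC, TTTGGCGC, TTTCGCGC or TTTGCCGC, forms that do not overlap one another in these promoters. It occurred in 3 of the 5 promoters, those of E2F1, E2F2 and TFDP1, and not in the windows of E2F7 and CCNE1. For comparison, 3.31% of all 35116 promoters of that table held a match, as did 4.10% of the 22199 promoters of protein-coding genes. The 130 bases before the RefSeq start are printed below 5′ to 3′ on the strand of the gene, with the matches in capitals. They lie at chr20:33686386-33686515 (minus strand) for E2F1, chr1:23531234-23531363 (minus strand) for E2F2 and chr13:113584623-113584752 (plus strand) for TFDP1.
E2F1: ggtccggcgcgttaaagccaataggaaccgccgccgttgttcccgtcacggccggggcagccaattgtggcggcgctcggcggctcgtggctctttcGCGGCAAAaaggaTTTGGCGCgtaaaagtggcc
E2F2: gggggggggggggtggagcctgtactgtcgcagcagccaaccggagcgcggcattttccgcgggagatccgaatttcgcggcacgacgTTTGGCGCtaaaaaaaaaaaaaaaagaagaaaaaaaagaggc
TFDP1: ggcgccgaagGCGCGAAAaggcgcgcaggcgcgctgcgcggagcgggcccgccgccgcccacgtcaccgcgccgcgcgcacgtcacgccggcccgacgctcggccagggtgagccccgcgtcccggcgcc

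E2F1 had 2 matches within 33 bases of its start, 1 on each strand, at bases -33 to -26 and -20 to -13. The annotation used in the deposited tables starts E2F1 19 bases further upstream than RefSeq, so these positions shift with the annotation. It starts CCNE1 93 bases further upstream, so the lack of a match there holds only for the window around the RefSeq start. E2F2 had the same letters as the nearer E2F1 match, TTTGGCGC, at bases -42 to -35. In TFDP1 the match lay at bases -120 to -113, on the strand opposite to the gene. A second motif of cell cycle promoters, the CHR element (TTTGAA or TTCGAA, both strands), occurred in 0 of the 5 promoters and in 16.4% of all promoters. Among promoters of protein-coding genes its share was 13.7%. These are matches of letters, not measured binding.

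**Figure D1:**
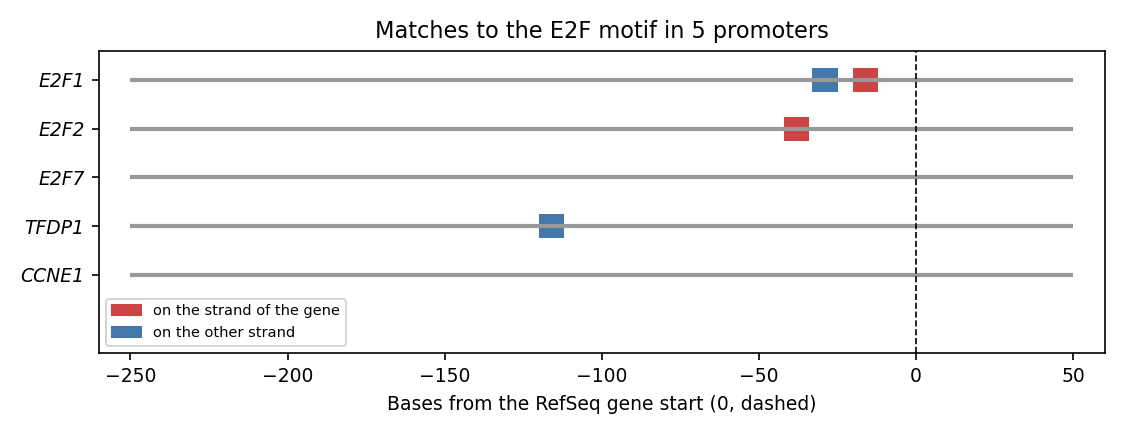
Position of matches to the E2F motif in the RefSeq promoters of the 5 matched genes, in bases from the gene start (horizontal axis, dashed line at 0). Red boxes are matches on the strand of the gene and blue boxes matches on the other strand; E2F1 has 2, E2F2 and TFDP1 have 1 each, and E2F7 and CCNE1 have none in the window.

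With both drugs all 7 genes were lower than in DMSO, by 3.02-fold for E2F7 at the least and 6.89-fold for E2F8 at the most. Values are normalised reads per gene, which are read counts divided by 1 factor per library, given as mean ± SD of 3 libraries unless single libraries are named. In none of the 7 genes did a combination library overlap a DMSO library. The same held for 3473 of all 3508 listed genes, since the tables hold only genes that passed the authors' cut-offs (every one differs by more than 1 on the log2 scale, at an adjusted p under 0.05). Genes listed as higher made up 10.3% of the 19944 genes that the authors adjusted over, and genes listed as lower 7.27%, where the number 19944 was inferred from the ranks of their p-values. Genes called lower (limma, adjusted p under 0.05) made up 41.3% of the listed genes and genes called higher 58.7%. Nothing is read from the count of 7 against these shares, since the genes were chosen from this contrast. Their median log2 change was -2.24, beside -1.44 over the 1450 lower genes and 1.16 over all listed genes.

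None of the 7 genes was among the 102 genes listed with fenofibrate alone or the 472 listed with ezetimibe alone. Both numbers are small beside the 19944 genes that the authors adjusted over for the combination. Most genes are therefore absent from both, and nothing is read from the absence of these 7. Of the genes listed with fenofibrate 8.82% were called lower and 91.2% higher by limma, and of those listed with ezetimibe 22.2% and 77.5%. The DMSO libraries are the same in all 3 tables, and each of the 7 genes had at least 304 reads in them (CCNE2, replicate 2). Absence of these genes may mean no change or a change that missed the cut-offs, and it leaves a gene without library values for that drug. Whether the combination differed from either drug alone in these genes was therefore not tested. The 6 libraries of the combination table held 2550718 to 3265200 reads in its listed genes, and the total depth of the libraries is unknown. The 7 genes rested on 52 reads (CCNE2, combination replicate 1) to 6212 reads (TFDP1, DMSO replicate 2) per library.

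**Figure D2:**
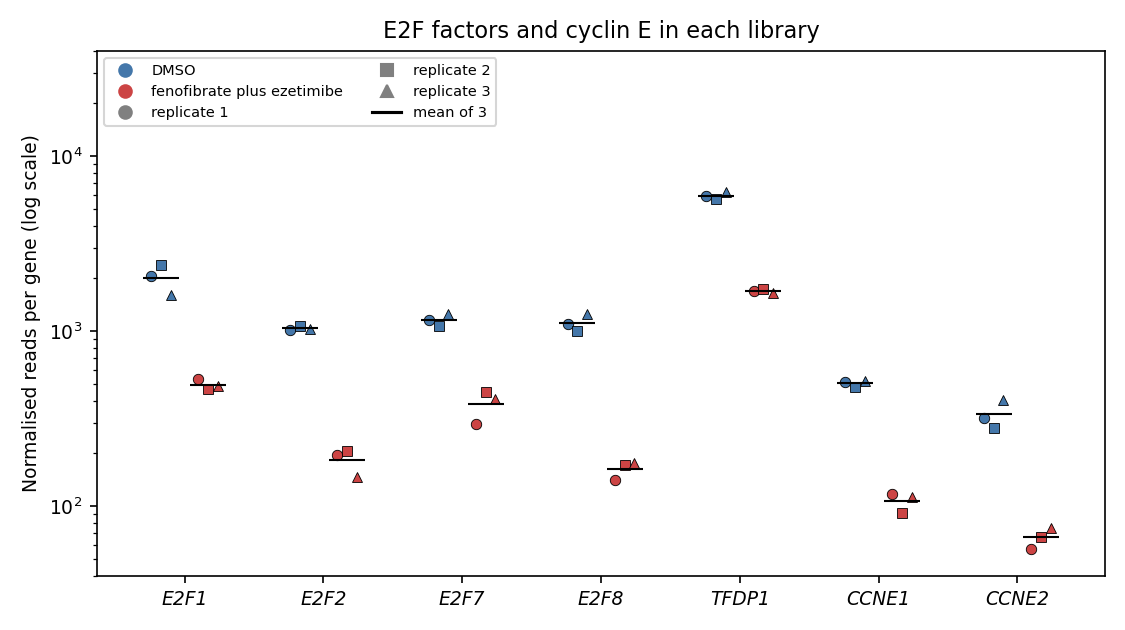
Normalised reads of the 7 genes (vertical axis, log scale) in each of the 3 DMSO libraries (blue) and the 3 combination libraries (red), with 1 symbol per replicate number and a line at each mean. Every red symbol lies below every blue symbol of the same gene.

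The activator E2F1 (ENSG00000101412, hg38 chromosome 20, 33675683 to 33686404, minus strand) stood at 2061, 2393 and 1609.6 in DMSO replicates 1 to 3 and at 529, 467 and 487 in the combination replicates. The combination libraries lay close together, while the DMSO libraries were spread widely, with replicate 3 lowest. The mean fell from 2021 ± 393 to 495 ± 31.8, a 4.09-fold difference (log2 -2.01 ± 0.14, SE from limma). The spread of E2F1 in DMSO was an SD of 0.29 on the log2 scale. Of the 488 listed genes whose DMSO mean was within 2-fold of that of E2F1 (itself included), 7 had a larger spread, and the median was 0.11. Listed genes passed a cut-off on adjusted p, which favours a small spread within groups, so this place does not hold for all expressed genes.

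E2F2 (ENSG00000007968, chromosome 1, 23506430 to 23531220, minus strand), the second activator, had 1019.7, 1069 and 1033 in DMSO and 196, 207 and 147 with the combination. Its DMSO libraries agreed within 2.43% (SD as a share of the mean), unlike those of E2F1, and combination replicate 3 was its lowest library. The mean of 183 ± 31.6 was 17.6% of the DMSO mean of 1041 ± 25.2, a 5.67-fold difference (log2 -2.51 ± 0.14). Of the 1450 genes that were lower with the combination, 138 had a larger fall than E2F2, against 319 with a larger fall than E2F1.

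E2F8 (ENSG00000129173, chromosome 11, 19224063 to 19241620, minus strand), an atypical repressor, showed the largest fall of the 7. It had 1103, 1006 and 1248 in DMSO and 140.3, 171 and 175 with the combination, which was 14.5% of the DMSO level (log2 -2.78 ± 0.14). The highest combination library was at 17.4% of the lowest DMSO library, and 75 of the 1450 lower genes fell further. Its exons share 7 bases with AC009652.2, an antisense gene that is not listed.

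E2F7 (ENSG00000165891, chromosome 12, 77021247 to 77065580, minus strand), the other atypical repressor, showed the smallest fall. It had 1154, 1076 and 1255 in DMSO and 294, 449 and 411 with the combination. Combination replicate 1 lay well below the other 2, and all 3 remained below the DMSO libraries. The spread of E2F7 with the combination was an SD of 0.32 on the log2 scale. Of the 853 listed genes whose combination mean was within 2-fold of that of E2F7 (itself included), 112 had a larger spread, and the median was 0.16. The mean of 385 ± 81.1 was 33.1% of the DMSO mean of 1162 ± 89.9 (log2 -1.61 ± 0.16), and without combination replicate 1 the log2 change was -1.43. Of the 1450 lower genes 563 fell further than E2F7.

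TFDP1 (ENSG00000198176, chromosome 13, 113584721 to 113641470, plus strand), the DP partner of the activators, had the highest values of the 7 in both groups. It had 5885, 5703 and 6205 in DMSO and 1699.95, 1729.96 and 1657 with the combination. The combination libraries agreed within 2.17% and the DMSO libraries within 4.28% (SD as a share of the mean). The mean was 28.6% of the DMSO level, a 3.50-fold difference (log2 -1.81 ± 0.09).

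CCNE1 (ENSG00000105173, chromosome 19, 29811898 to 29824308, plus strand), which encodes cyclin E1, had 515, 481 and 521 in DMSO and 117, 90.8 and 112 with the combination. Combination replicate 2 was lowest, and the highest combination library was at 24.4% of the lowest DMSO library. The mean fell 4.74-fold (log2 -2.24 ± 0.15).

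CCNE2 (ENSG00000175305, chromosome 8, 94879770 to 94896678, minus strand), which encodes cyclin E2, had 320.4, 279 and 401 in DMSO and 57.0, 66.7 and 74.7 with the combination. It was the lowest of the 7 in both groups, with 52 to 78 reads in the combination libraries. The mean fell 5.04-fold (log2 -2.31 ± 0.19), with the largest SE of the 7. Of its 4397 exon bases, 1629 are shared with INTS8 on the other strand, which is not listed. The sources used here do not give whether counting used strand, so reads of both genes over that stretch may not have been told apart.

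The order of the levels was compared per length, as normalised reads per kb of the exonic gene length. In DMSO it ran from TFDP1 (1585 ± 67.9 per kb) through E2F1 (808 ± 157) and E2F8 (270.3 ± 29.4) to CCNE1 (198 ± 8.41), E2F2 (191 ± 4.63) and E2F7 (184 ± 14.3), with CCNE2 last (75.9 ± 14.1). CCNE1, E2F2 and E2F7 had overlapping ranges of mean ± SD. With the combination TFDP1 (453 ± 9.85 per kb) and E2F1 (198 ± 12.7) were still highest, followed by E2F7 (61.0 ± 12.9). CCNE1 (41.8 ± 5.50), E2F8 (39.2 ± 4.63) and E2F2 (33.6 ± 5.79) came next, with overlapping ranges of mean ± SD, and CCNE2 (15.0 ± 2.02) was again last.

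**Figure D3:**
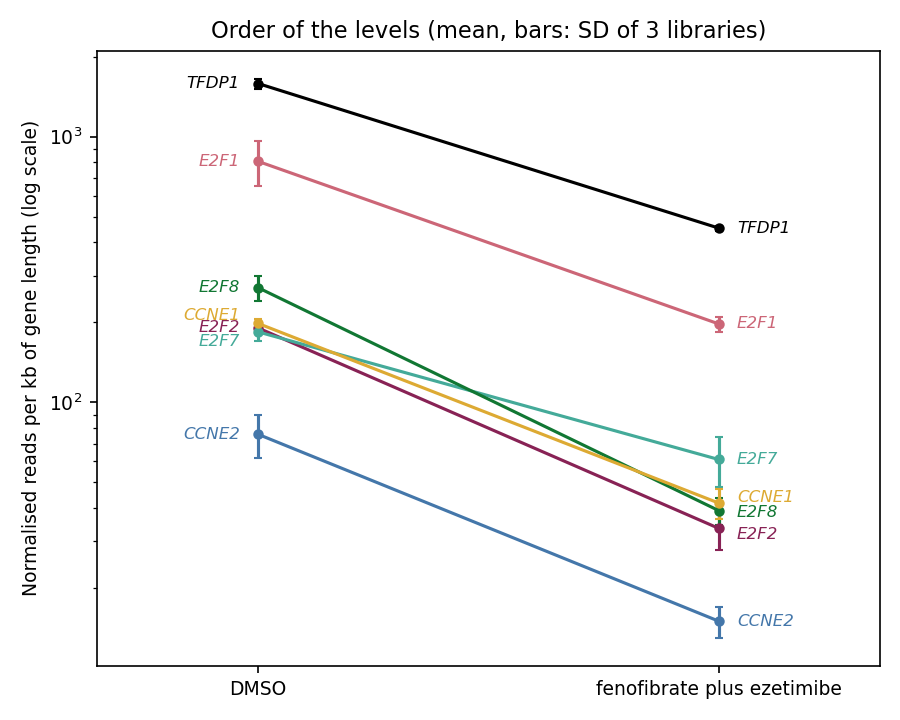
Mean level of each gene in normalised reads per kb (vertical axis, log scale) in DMSO and with the combination; bars are the SD of 3 libraries. The lines of E2F7 and E2F8 cross, with E2F8 above E2F7 in DMSO (270.3 against 184) and below it with the combination (39.2 against 61.0).

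The proportion of the repressors to each other differed between the groups. The ratio of E2F7 to E2F8 per kb was 0.687, 0.702 and 0.661 in the DMSO libraries and 1.38, 1.72 and 1.54 in the combination libraries. The groups did not overlap, and DMSO replicates varied little in this ratio (0.683 ± 0.021). E2F1 over E2F2 was 4.23 ± 0.76 in DMSO and 6.01 ± 1.14 with the combination, where the lowest combination library (4.93) lay just above the highest DMSO library (4.88). CCNE1 over CCNE2 overlapped between the groups, at 2.66 ± 0.38 and 2.83 ± 0.64. The summed activators E2F1 and E2F2 over the summed repressors E2F7 and E2F8 overlapped too (2.23 ± 0.56 and 2.38 ± 0.61), as did TFDP1 over the summed activators (1.62 ± 0.34 and 1.96 ± 0.12). These ratios come from the contrast that chose the genes and were not tested.

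Within a group the genes did not all rank the libraries alike. Among the DMSO libraries replicate 2 was lowest and replicate 3 highest for 5 genes (E2F7, E2F8, TFDP1, CCNE1 and CCNE2). Both activators were highest in replicate 2, and E2F1 was lowest in replicate 3. Among the combination libraries E2F7, E2F8 and CCNE2 were lowest in replicate 1, E2F1 and CCNE1 in replicate 2, and E2F2 and TFDP1 in replicate 3. Combination replicate 1 was also the library with the fewest reads in listed genes (2550718), and the part of depth in these differences was not tested.

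The rest of the E2F and DP family was not listed. Of 11 genes of the family 5 were listed with the combination, all lower and all described above, and E2F3, E2F4, E2F5, E2F6, TFDP2 and TFDP3 were not listed in any table. E2F3 is the third activator, and E2F4 and E2F5 are mainly repressors that act with the pocket proteins RBL1 and RBL2. The DREAM and MuvB complexes switch cell cycle promoters between repression and activation. The authors listed 7.27% of the genes they adjusted over as lower and 10.3% as higher. Of 11 pocket proteins and DREAM or MuvB partners, 4 were called lower and 0 higher. They were MYBL1 (94.4 ± 36.3 against 299 ± 30.1 in DMSO), MYBL2 (1922 ± 245 against 6190.03 ± 308), FOXM1 (1866 ± 57.2 against 4784 ± 2.81) and RBL1 (461 ± 103 against 1083 ± 117). Their log2 changes ran from -1.73 to -1.25 (median -1.53), and the estimates of the members other than E2F7 (-1.61) were larger falls. MYBL1 (-1.73 ± 0.27) lay within its SE of TFDP1 (-1.81). Its change ran from -1.97 (without combination replicate 2) to -1.38 (without combination replicate 1), and that of RBL1 was -1.05 without combination replicate 1. RB1, the retinoblastoma gene, was not listed.

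CDK2, the kinase partner of cyclin E, fell to 374 ± 52.5 against 1328 ± 53.8 in DMSO (log2 -1.83 ± 0.12). It is 1 of 9 other G1/S cyclins, kinases and a phosphatase, of which 3 were called lower and 2 higher (median log2 of these 5, -1.06). Beside this, 7.27% of all genes that the authors adjusted over were listed as lower and 10.3% as higher. CCND1, the cyclin D of the preceding step, was lower (5252 ± 137 against 12303 ± 351), as was CCNA2 (log2 -1.06 ± 0.10), the cyclin that follows cyclin E. The 2 higher genes had very low DMSO values, CCND2 at 102 ± 22.0 against 7.87 ± 3.44 and CCNA1 at 20.3 ± 10.8 against 1.93 ± 2.60. CCNA1 had 6 reads in all DMSO libraries together, and its log2 change of 3.13 ran from 2.55 (without DMSO replicate 3) to 3.83 (without DMSO replicate 1). CCND2 was also the 1 gene of these pathway lists in the ezetimibe table (33.1 ± 12.0 against 7.89 ± 3.45), and the fenofibrate table held none. CDK4, CDK6, CCND3 and CDC25A were not listed.

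Inhibitors of cyclin-dependent kinases went both ways, with 3 of 7 called higher and 2 lower, where 10.3% and 7.27% of all genes that the authors adjusted over were listed as higher and lower (median log2 of these 5, 1.10, which is the value of CDKN2A). CDKN1A, which encodes p21, an inhibitor of cyclin E with CDK2, rose 2.58-fold to 4770.3 ± 667 against 1846 ± 139. CDKN2B rose from few reads (46.5 ± 6.27 against 11.1 ± 2.22). CDKN2C, which encodes the CDK4 and CDK6 inhibitor p18 and is known as an E2F target, had 125 ± 19.1 against 709.99 ± 91.9 (log2 -2.50), and CDKN2D changed by -1.17. CDKN1B, the other main inhibitor of cyclin E with CDK2, was not listed. Of 7 genes for the turnover of cyclin E and its inhibitors, SKP2, the subunit of a ubiquitin ligase that targets p27, was called lower (801 ± 118 against 3106 ± 179, log2 -1.96 ± 0.12). FBXW7, which marks cyclin E for degradation, was not listed.

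**Figure D4:**
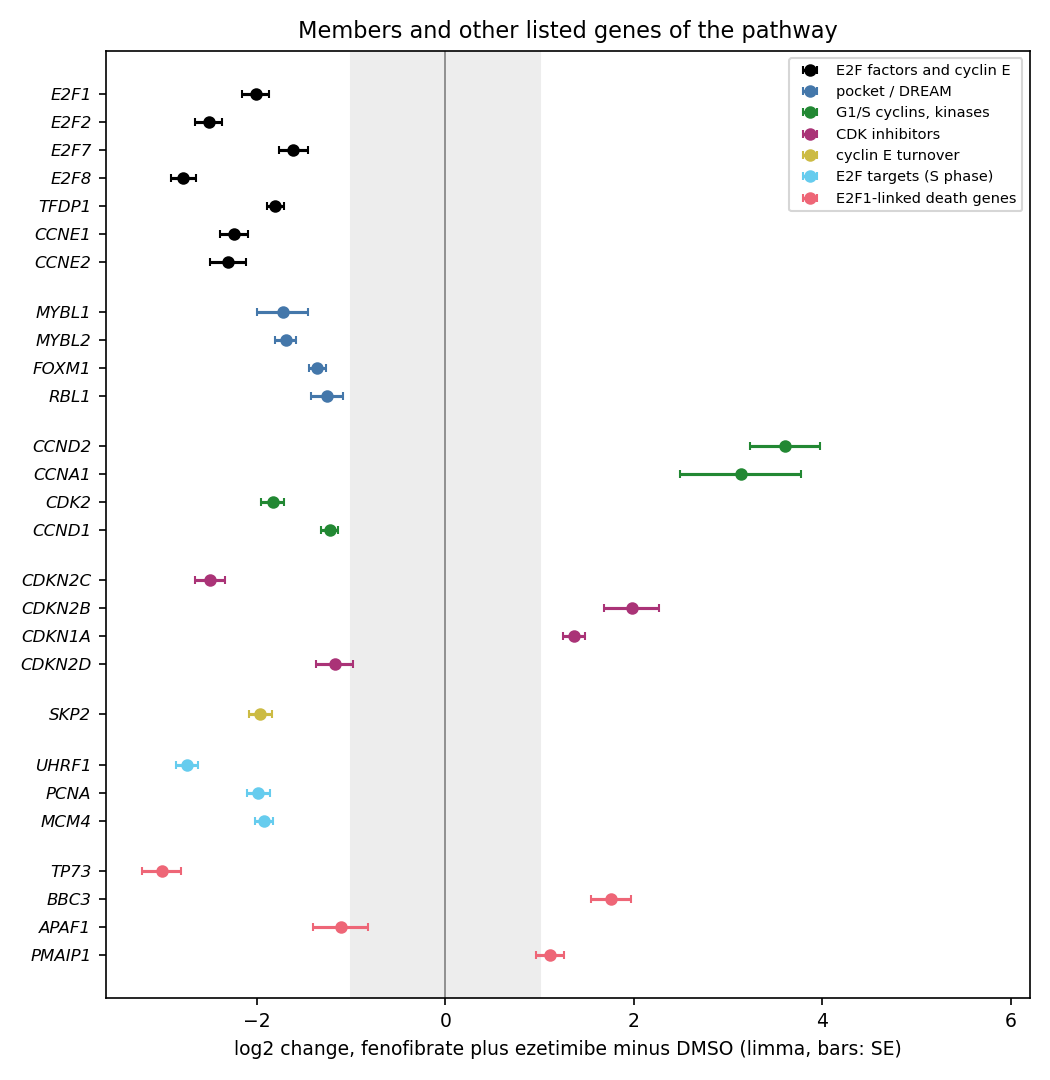
Log2 change with the combination (horizontal axis, bars are the SE from limma) of the 7 genes and of up to 4 listed genes of each pathway list, chosen by the size of their change. The grey band between -1 and 1 is the range that the authors did not list, which they set on their own fold changes. The members lie between -2.78 and -1.61.

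Of 46 E2F target genes of S phase, 26 were called lower and 0 higher with the combination. Of all genes that the authors adjusted over, 7.27% were listed as lower and 10.3% as higher. None of the 46 was among the 102 genes listed with fenofibrate or the 472 listed with ezetimibe. Both numbers are small beside the 19944 genes that the authors adjusted over for the combination, so nothing is read from this absence. The median log2 change of the 26 was -1.39, beside -1.44 over all 1450 lower genes and -2.24 over the 7 members. The largest fall was that of UHRF1, which maintains DNA methylation (log2 -2.74 ± 0.12). The replication clamp PCNA stood at 1411 ± 179 against 5576 ± 545 and the helicase subunit MCM4 at 2039 ± 99.5 against 7739 ± 340.1. The 20 other targets were not listed. For 39 of the 46 targets a promoter was found, and 37.5% of their 56 promoters held the E2F motif. The list was made of E2F targets, so this share is no finding of these data. Among the genes lower with the combination, with the 7 members left out, 5.99% of 1519 promoters held the E2F motif. Targets called lower were kept in this set. The share was 3.31% of 1754 promoters of higher genes and 4.04% of 19078 promoters of protein-coding genes that were not listed. For the CHR element the shares in these sets were 14.7% for lower genes, 11.4% for higher genes and 13.9% for genes not listed. It was in 3.57% of the promoters of the targets. Differences between these shares were not tested.

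Genes of cell death linked to E2F1 went both ways. Of 8 such genes 2 were called higher and 2 lower, where 10.3% and 7.27% of the genes that the authors adjusted over were so listed. The median log2 change of these 4 was -0.0029. The higher ones were BBC3 (701 ± 36.2 against 215 ± 67.6) and PMAIP1 (477 ± 75.8 against 219 ± 11.8), both promoters of mitochondrial cell death. TP73, a relative of p53 and a direct target of E2F1, fell 8.34-fold (35.4 ± 4.10 against 295 ± 57.7), further than any of the 7 members. APAF1, the scaffold of the apoptosome, had 209 in combination replicate 1 and 538 and 476 in the others, against 817 ± 50.6 in DMSO. Its log2 change was -1.11, and -0.69 without combination replicate 1.

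The mean profile of the 7 genes over the 6 libraries was compared with 2092 other protein-coding genes whose mean was 50 or more. Likeness was the root mean square difference of log2 changes per library from the DMSO mean. The nearest gene was CA2, a carbonic anhydrase, at 0.047 (1276 ± 18.1 against 5617.5 ± 292). BRI3BP followed at 0.074, FZD4, a receptor for Wnt ligands, at 0.082 and IGSF3 at 0.083. The median over all genes compared was 0.84. The members themselves lay at 0.14 (CCNE1) to 0.43 (E2F7) from their own mean. The 4 genes named were picked as the nearest of the 2092, so their smaller distances are no finding. The measure is dominated by the size of the difference between the 2 groups.

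Other transcripts moved with the same contrast. All 28 listed genes of the mitochondrial genome were lower, where 41.3% of all listed genes were called lower. Mitochondrial genes that were not listed have no values here. The summed value of the 28 was 167304 to 201896 in the combination libraries and 613647 to 790353 in the DMSO libraries. Their part in the results above was not tested. In RNA from a whole culture, fewer cells near the G1/S transition and less RNA of these genes per cell cannot be told apart. Of the markers fixed for cell types, 0 of 5 epithelial, 0 of 4 mesenchymal and 0 of 5 leukocyte genes were listed in any table. Of 4 endothelial genes CDH5 was listed with ezetimibe, at low values (10.1 ± 3.38 against 26.9 ± 10.3). Levels of the other markers are unknown, so the labelled cell type could not be checked.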

How the data were processed

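The build is hg38, and the tools named are HISAT2 2.0.5, fastp and featureCounts 1.5.0-p3, per the submitters' processing notes. The sources used here do not give the tool of the differential test. Per the file headers, each deposited table holds gene positions, lengths, 6 libraries and the authors' fold change (log2) with its p-value, raw and adjusted. The deposited library values are a normalised signal. Of 21048 values for the combination, 100% were whole read counts (within 0.001), 3508 genes in all, divided by 1 factor per library (0.912 to 1.09). The number of 19944 genes that the authors adjusted over was inferred from 1123 p-values, of which 78.7% gave a whole rank.

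Each table was fitted whole with limma 3.58.1 (trend, R 4.3.3) on log2(value + 1). P-values were 2-sided and adjusted over all genes of the table (Benjamini-Hochberg), with a threshold of 0.05. The added 1 understates changes of low genes. The procedure was also run on simulated data in which most genes did not change. The deposited tables hold only called genes, so that run does not show how the procedure performs on them. Members and lists were chosen with earlier results of these data known. Named genes are the 7 members, up to 4 genes of each list with the largest absolute change in a table, and the 5 genes of most similar profile, of which 1 gene is not reported here; other genes, such as CCNA2 and genes named as not listed, were chosen after their values were seen. Gene positions and exonic lengths of the 7 genes equalled those of GENCODE 29. Alternatives were other pseudocounts (0.5 and 5), a mean of at least 10, no library scaling, edgeR 4.0.16 and DESeq2 1.42.0 on the recovered reads (edgeR's quasi-likelihood test called all 3508), the replicate number as a block, and leaving out each library. Replicate numbers were not used as pairs in the main fit.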

Additional observations from a re-analysis of the deposited data

How the results depend on the processing

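All 7 members were lower in each of the 13 alternatives run on the combination table. The tables hold only genes that the authors had called, and limma called all 3508 genes for the combination, so neither the direction nor the call of a gene there is a sign of stability. Leaving out 1 library at a time gave log2 changes between -2.17 and -1.88 for E2F1, -1.74 and -1.43 for E2F7 and -2.43 and -2.17 for CCNE2. edgeR's quasi-likelihood test on the recovered reads gave -2.78 for E2F8 and -1.59 for E2F7. DESeq2 gave -2.782 and -1.592, and the authors' own log2 fold changes for these genes were the same at that rounding. The DESeq2 values may therefore not be separate from the fit that chose the genes. Counts of called genes stayed within 1.5 times in every table and alternative run, among them 3474 to 3494 genes with 1 library left out of the combination table, beside 3508. Leaving out libraries for the pathway genes was chosen after seeing the data.

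With the replicate number as a block, 3508 genes were called. In this balanced design the block cannot change a log2 change. Deviations of same-numbered libraries correlated at 0.092, -0.33 and 0.16 over 2303 genes, and those of differently numbered libraries at -0.33 to 0.34. These values show no pairing by number, and with 3 libraries per group they cannot exclude it. The count tests and the unscaled fit were run on the combination table alone, and the planned comparisons of the combination with each single drug were not run, since no member has values there. CCNE2 had the fewest reads of the members, down to 52 a library.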
